A study of Mus musculus with 2 samples.

Results

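Cathepsins are proteases that work mostly inside the endolysosome, and cystatins are proteins that inhibit the cysteine cathepsins. The genes described here were the 8 cathepsins Ctsb, Ctsc, Ctsd, Ctsf, Ctsh, Ctsl, Ctss and Ctsz and the 2 cystatins Cst3 and Cst7. They were taken by symbol, 10 of the 31053 genes in the count matrices, and all 10 were present in both matrices. Immune cells of the tumor-bearing brain hemisphere had been profiled by droplet scRNAseq, with 1 library from WT mice (wild type for the CD169-DTR allele) and 1 from CD169-DTR mice (hetero). All mice were on the C57BL/6 background, male and 8 to 12 weeks old, and each library pooled 3 mice. Both genotypes received GL261 mouse glioma cells, 100000 into the brain, and diphtheria toxin at 40 ng per g body weight on day -1 and day 4 relative to that injection. Living CD45.2+ cells were sorted at 10 days post-injection (dpi). In CD169-DTR mice 1 copy of Siglec1, the gene for CD169, carries the human diphtheria toxin receptor, so the toxin removes cells in which the Siglec1 promoter is active. Toxin was given to both groups and a group without toxin was not analysed here. With 1 library per genotype no test between genotypes was possible, so levels are given for each library with 95% counting intervals, which do not cover the variation between mice.

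Cysteine cathepsins such as Ctsb, Ctsl, Ctss and Ctsf cut proteins internally, Ctsc, Ctsh and Ctsz trim their ends, and Ctsd is an aspartic protease that cystatins do not block. Ctss and Ctsl remove the invariant chain from MHC class II in antigen-presenting cells, and Ctsc activates the granule proteases of cytotoxic lymphocytes, granulocytes and mast cells. Cst3 encodes cystatin C, a secreted inhibitor long known as one of the most abundant microglial transcripts. Cst7 encodes cystatin F, which is carried to the endolysosome, acts there on Ctsc among others, and is known as a gene that microglia raise when they leave the homeostatic state.

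The WT library held 101808996 unique molecular identifiers (UMIs, each standing for 1 captured transcript) and 10107 cells, and the CD169-DTR library held 84065489 UMIs and 7604 cells. Median depth was 7776 and 8099.5 UMIs per cell, and 21 cell barcodes were shared between the libraries where 11.3 would be shared by chance. Cells were grouped by clustering without the cathepsin and cystatin genes, and groups were named from marker lists that contain none of them. Microglia made up 4803 of the WT and 5441 of the CD169-DTR cells, and macrophages 2081 and 588. Levels are the UMIs of a gene per 1000000 UMIs of the class in that library (CPM). Siglec1 stood at 19.0 CPM in WT microglia and 5.56 in CD169-DTR microglia, and at 40.8 and 13.8 in macrophages. Free RNA was estimated from microglial marker transcripts in lymphocytes, with doublets kept, and came to 1714 (WT) and 899 (CD169-DTR) UMIs in each droplet. These estimates lie far above the 10 to 100 UMIs of the barcodes that gave the free RNA profile. They may be too high, so a level near or below free RNA does not show that a gene is absent. The part of doublets in them was not tested. Since the most abundant genes here are microglial, levels of the 10 genes in a class are set against the level that free RNA alone would give. The count is of transcript 3' ends, so levels are not divided by gene length.

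Microglia devoted more of their transcripts to these genes than any other class. The 10 genes together took 7.65% of all UMIs in WT microglia and 7.11% in CD169-DTR microglia, against 2.27% and 2.84% in macrophages, 2.16% and 2.25% in cDC1, and 0.598% and 0.431% in T cells. Cst3 alone stood at 34532 CPM in WT and 32004 in CD169-DTR microglia, which made it the most abundant of the 10 genes in that class. Ctsd followed at 16154 and 15761, and Ctss at 8505 and 7773. Ctsb, Ctsz and Ctsl stood at 6715, 4689 and 2969 CPM in WT microglia and at 5776, 4202 and 2928 in CD169-DTR microglia. The least abundant genes of the list in microglia were Ctsh at 1248 and 1156, Ctsc at 930 and 913, Cst7 at 596 and 371, and Ctsf at 185 and 213. The order of the 10 genes in microglia was the same in both libraries, and their levels were 7.44 to 13.6 times the free RNA level in WT and 12.4 to 17.8 times in CD169-DTR.

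**Figure D1:**
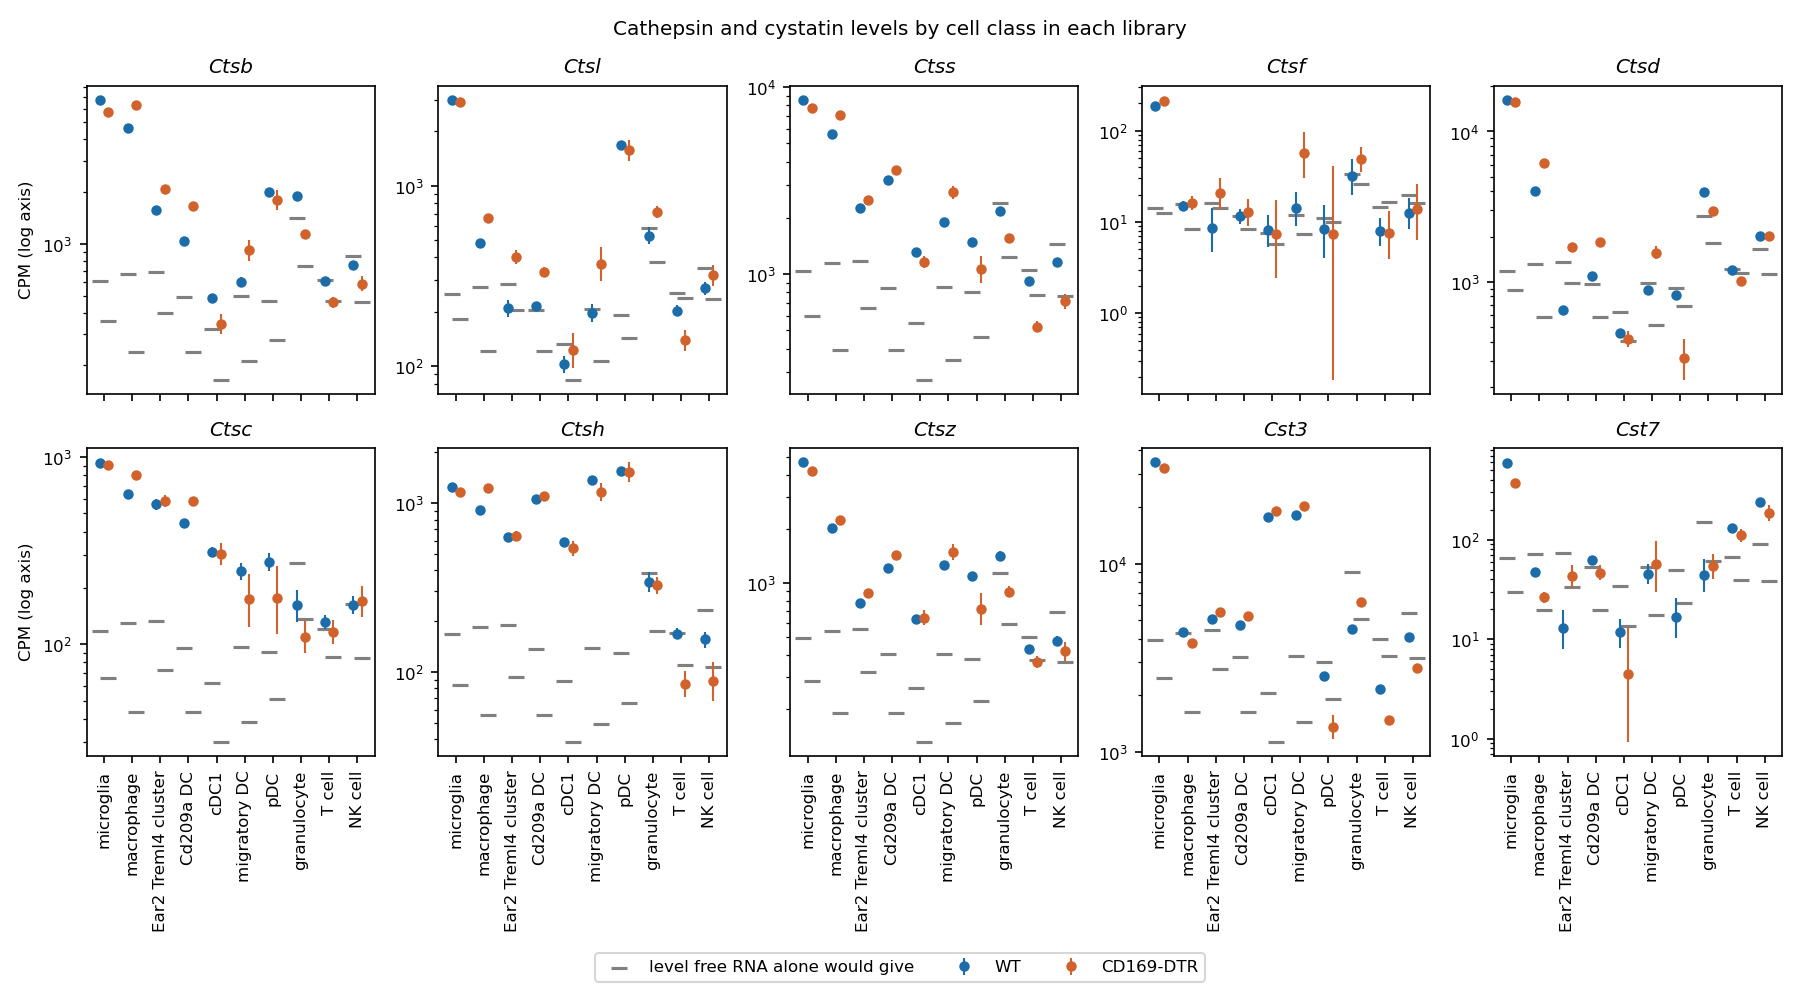
Level of each gene in 10 cell classes, in CPM on a log axis, with 1 point per library (WT and CD169-DTR), 95% counting intervals as bars and grey dashes for the level that free RNA alone would give. Microglia hold the highest level of every gene in both libraries except Ctsb and Ctsh in CD169-DTR macrophages and Ctsh in migratory DC and pDC; Cst3 is also high in cDC1 and migratory DC, and Cst3, Cst7 and Ctsf in WT macrophages sit on or below the dashes.

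Macrophages, the class marked by Ly6c2, Ccr2, Ms4a7 and Arg1, had a different order of genes. In WT macrophages Ctss stood at 5631 CPM, Ctsb at 4618, Cst3 at 4343, Ctsd at 4027 and Ctsz at 2034, and in CD169-DTR macrophages the same genes stood at 7112, 6340, 3777, 6189 and 2233. Cst3, first among the 10 genes in microglia, was behind Ctss and Ctsb in both macrophage pools. Cst7 was at 47.0 and 26.2 CPM, Ctsf at 14.9 and 16.1, and Ctsl, which cleaves the invariant chain in some antigen-presenting cells, at 479 and 658. Observed over free RNA levels in WT macrophages were 1.01 for Cst3, 0.66 for Cst7 and 0.95 for Ctsf, so these 3 genes were not clearly above that estimate in the pooled class. As the estimate may be too high, their absence is not shown. In a sub-cluster of these WT macrophages high in Gpnmb and Pf4, described further on, the values were 2.03, 1.79 and 2.37. In CD169-DTR macrophages, against a lower free RNA estimate per droplet, the same values were 2.30, 1.32 and 1.91. By contrast Ctsb was 6.89 and 26.6 times, Ctss 4.94 and 18.0 times, and Ctsh 4.92 and 22.1 times the free RNA level. T cells, in which most of these genes are low, gave values between 0.45 and 1.36 for the genes other than Cst7. Because the free RNA level was estimated from microglial markers in lymphocytes, T cell values near 1 are not a separate check of it.

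Set against microglia of the same library, 6 of the 10 genes were lower in macrophages by more than 0.5 on the log2 scale in both libraries and none was higher by that much. Of all 10929 genes compared, 37.9% were lower and 12.5% higher in both libraries. The 6 genes were Cst7 (log2 ratio -3.67 in WT and -3.82 in CD169-DTR), Ctsf (-3.63 and -3.72), Cst3 (-2.99 and -3.08), Ctsl (-2.63 and -2.15), Ctsd (-2.00 and -1.35) and Ctsz (-1.21 and -0.91). Ctsb, Ctss, Ctsh and Ctsc differed less, with -0.54, -0.60, -0.46 and -0.55 in WT and 0.13, -0.13, 0.10 and -0.18 in CD169-DTR. With free RNA subtracted the ratio of Cst3 was -9.60 in WT and -3.84 in CD169-DTR. In WT nearly all macrophage Cst3 was subtracted, so the WT value rests on a small remainder and does not measure the size of the difference.

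Dendritic and other classes each kept a part of the list. Cst3 was high in the conventional dendritic cells, at 17699 CPM in WT and 18984 in CD169-DTR cDC1 and at 18184 and 20130 in migratory DC (the Ccr7, Ccl22 and Fscn1 class), 8.56 and 16.8 times the free RNA level in cDC1. The cathepsins were low beside it, so the ratio of the listed cathepsins summed to Cst3 and Cst7 summed was 0.220 and 0.186 in cDC1, against 4.18 and 6.47 in macrophages. Cstb, a cystatin outside the list, is not in this sum. It stood at 2101 and 1513 CPM in macrophages and at 174 and 149 in cDC1. Cd209a DC, the largest dendritic class (844 and 198 cells), had Cst3 at only 4742 and 5286 CPM and a ratio of 1.72 and 1.98. Plasmacytoid dendritic cells (pDC) differed from cDC1, with Cst3 at 2540 and 1364 CPM, below the estimated free RNA level, and a ratio of 3.49 and 5.26. In WT pDC Cst3 was still the highest of the listed genes. The pDC had Ctsl at 1681 and 1570, Ctsb at 2000.5 and 1791, and Ctsh at 1559 and 1526. The CD169-DTR library held 32 cDC1, 14 migratory DC and 11 pDC, so its values rest on few cells. Ctsh, an aminopeptidase, varied least over the myeloid clusters, by 4.78 times between its highest and lowest cluster, and Cst7 varied most, by 83.8 times. A cluster led by Ear2, Adgre4 and Treml4, left without a name, had Ctss at 2265 and 2498 and Ctsb at 1557 and 2059 CPM.

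Cst7 was also present in cytotoxic lymphocytes. NK cells held it at 241 CPM in WT and 187 in CD169-DTR, and T cells at 132 and 112, which was 2.65 and 4.90 times and 1.98 and 2.86 times the free RNA level. After each cell was thinned to 3000 UMIs, 44.3% of WT NK cells (128 of 289) and 46.4% of CD169-DTR NK cells (39 of 84) had a Cst7 UMI. The share was 24.7% and 14.6% in T cells, and 5.71% and 1.80% in B cells. By level B cells were not uniformly at background, since Cst7 stood at 171 CPM in WT B cells, 2.27 times the free RNA level with 29.3% of its UMIs in 1 cell, and at 20.9 CPM, 0.39 times, in CD169-DTR B cells. Among the CD169-DTR T cells 1 cell held 27.5% of the Cst7 UMIs. Ctsc, which activates the granzymes, was at 162 and 170 CPM in NK cells, 0.99 and 2.03 times the free RNA level. Gzma, Prf1 and Gzmb, products of the cytotoxic granule, stood at 5557, 452 and 2590 CPM in WT NK cells and at 7187, 588 and 1594 in CD169-DTR NK cells, so Gzmb alone of these was higher in WT.

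Microglia fell into states that differed in these genes more than the libraries did. Homeostatic microglia (P2ry12, Tmem119 and Sall1 high) numbered 2071 in WT and 2559 in CD169-DTR, disease-associated microglia (Lpl, Itgax and Axl) 792 and 830, and tumor-reactive microglia (Spp1, Igf1 and Apoc1) 257 and 227. Cst3 went from 61247 CPM in homeostatic to 27769 in disease-associated and 10964 in tumor-reactive microglia of the WT library, and from 55637 to 24765 and 9228 in the CD169-DTR library. Cst7 went the other way, from 219 to 831 and 1061 in the WT library, while the CD169-DTR values were 143, 563 and 740. The 2 cystatins thus stood at opposite ends in the same cells, Cst3 highest in the homeostatic and lowest in the tumor-reactive state, and Cst7 lowest in the homeostatic and highest in the tumor-reactive state, in each library.

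**Figure D2:**
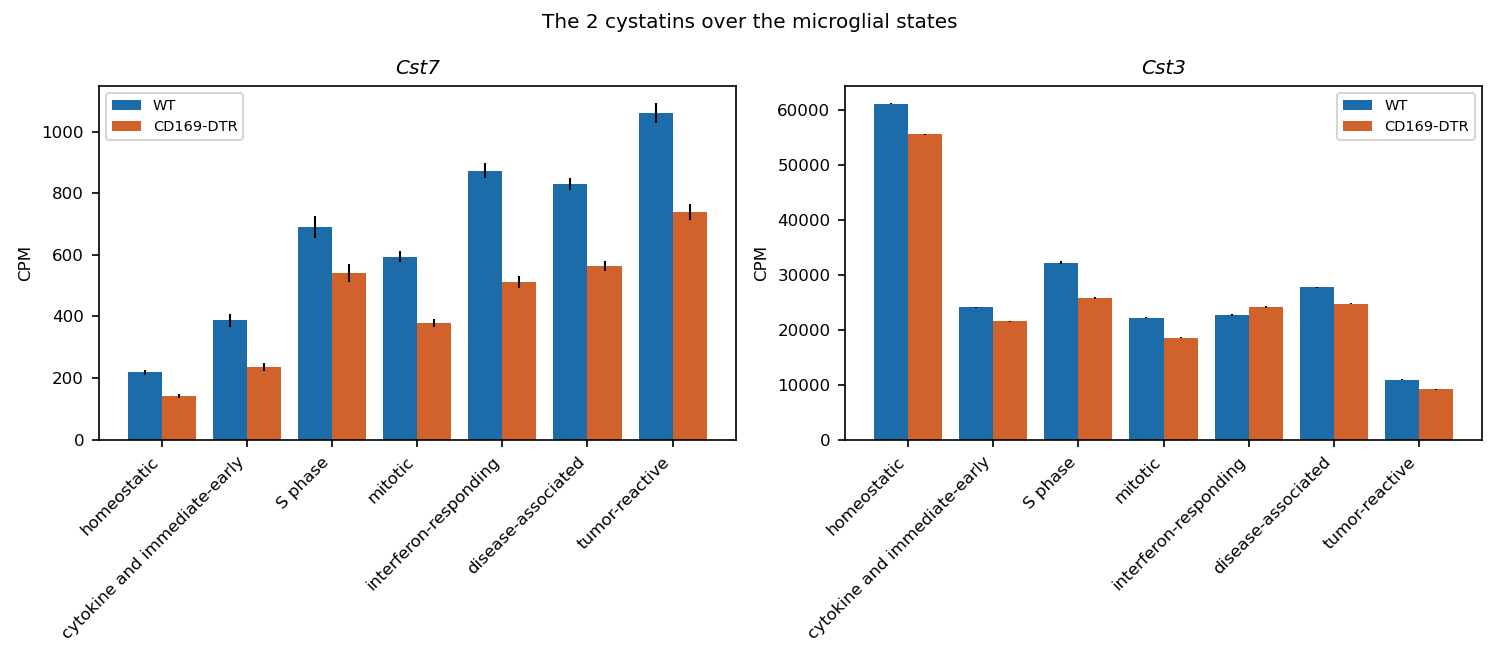
Cst7 (left) and Cst3 (right) in 7 microglial states, in CPM, with WT and CD169-DTR bars side by side and 95% counting intervals. Cst7 goes from 219 and 143 in homeostatic to 1061 and 740 in tumor-reactive microglia and is higher in WT in all 7 states, while Cst3 goes from 61247 and 55637 to 10964 and 9228.

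Among the cathepsins, Ctsb and Ctsz were higher and Ctsf lower in the interferon-responding, disease-associated and tumor-reactive states than in the homeostatic state. In cytokine and immediate-early microglia Ctsz was instead lower, at 3126 and 2907 CPM against 3748 and 3406 in homeostatic microglia. In the 7 states each of the 10 genes stood at 2.31 times its free RNA level or more, with the lowest value for Cst7 in WT homeostatic microglia. Ctsb stood at 4802 and 4215 CPM in homeostatic, 8503 and 7648 in disease-associated and 12031 and 10254 in tumor-reactive microglia (WT and CD169-DTR). For Ctsb the log2 ratio of tumor-reactive over homeostatic microglia was 1.32 in the WT library (95% interval 1.31 to 1.34) and 1.28 in the CD169-DTR library (1.27 to 1.30), and for Ctsz it was 0.75 and 0.87. Ctsf, the least abundant of the 8, went from 312 and 334 in homeostatic to 93.6 and 111 CPM in tumor-reactive microglia. Ctsd had log2 ratios of 0.41 and 0.80 and was then the most abundant gene of the list, at 21881 and 25731 CPM. Ctsl, Ctsc and Ctsh moved by less than 0.5 in both libraries, and Ctss had ratios of -0.28 and -0.49. Cst3 had log2 ratios of -2.48 and -2.59 and Cst7 of 2.28 and 2.38. The ratio of the listed cathepsins summed to Cst3 and Cst7 summed, without Cstb, was 0.649 and 0.656 in homeostatic microglia and 4.49 and 5.46 in tumor-reactive microglia. Tumor-reactive cells were deeper than homeostatic cells, with medians of 14049 and 17471 UMIs per cell against 5689 and 6018, and the part of depth in these ratios was not tested.

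**Figure D3:**
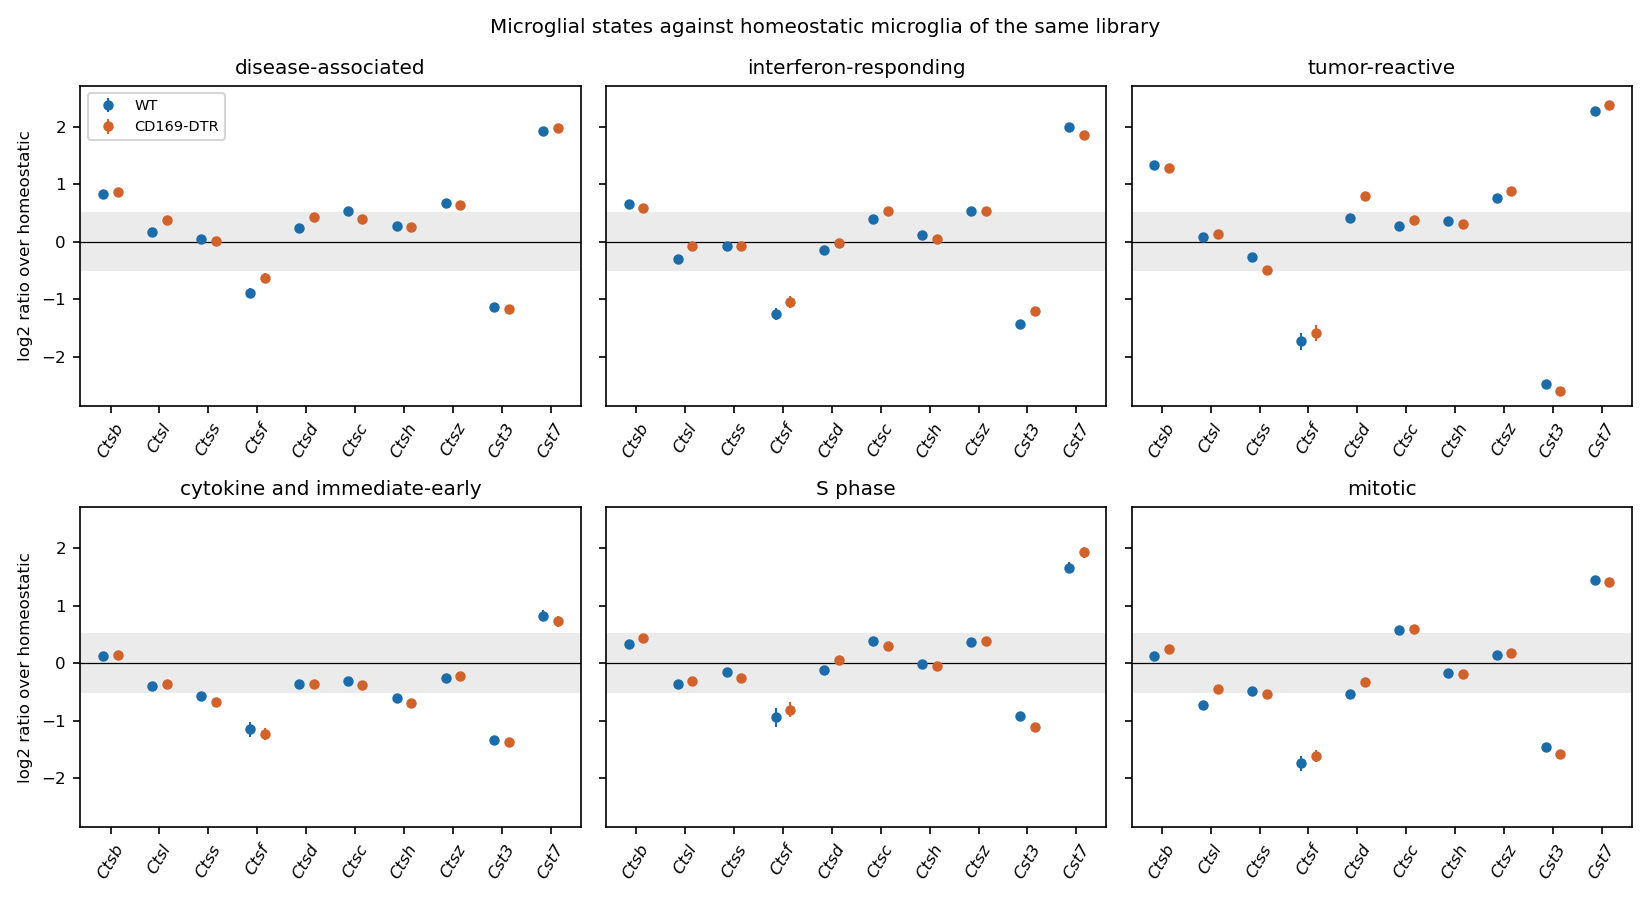
Log2 ratio of each gene in 6 microglial states over homeostatic microglia of the same library, 1 panel per state, with WT and CD169-DTR points, 95% counting intervals and a grey band at 0.5 either side of 0. Cst7 lies above and Cst3 and Ctsf below the band in all 6 states and both libraries, and Ctsb and Ctsz lie above it in the disease-associated, interferon-responding and tumor-reactive states.

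In both libraries 3 of the 10 genes (Ctsb, Ctsz and Cst7) were higher and 2 (Cst3 and Ctsf) lower by more than 0.5 in tumor-reactive than in homeostatic microglia. The same 5 genes passed that threshold in the same directions in disease-associated and in interferon-responding microglia. Of all genes compared, 10.3% were higher and 30.7% lower in tumor-reactive, 6.42% and 14.8% in disease-associated and 8.64% and 15.6% in interferon-responding microglia. Interferon-responding microglia, marked by Ifit2, Isg15 and Rsad2, had Cst7 at 873 and 512 and Cst3 at 22750 and 24214 CPM. Cytokine and immediate-early microglia (Ccl3, Il1a and Atf3) had the smallest Cst7 ratios, 0.82 and 0.73, and were lower than homeostatic microglia in Ctsh (-0.60 and -0.69) and Ctss (-0.58 and -0.68). In that state 1 gene was higher and 4 lower in both libraries, against 11.8% and 25.1% of all genes. Dividing microglia also held more Cst7, with log2 ratios of 1.66 and 1.93 in S phase and 1.44 and 1.41 in mitotic cells. Ctsc passed the threshold in both libraries in mitotic cells, at 0.58 and 0.59, where 18.4% of all genes were higher and 16.3% lower. The share of cells with a Cst7 UMI after thinning was 26.1% and 18.4% in homeostatic, 72.8% and 60.7% in disease-associated and 80.5% and 72.3% in tumor-reactive microglia.

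A wider list of 66 lysosomal genes puts these changes in context. In tumor-reactive over homeostatic microglia, 16 of the 58 lysosomal genes with enough counts were higher and 10 lower by more than 0.5 in both libraries, against 10.3% higher and 30.7% lower among all genes. Those higher included Cd63, Npc2, Lipa and the proton pump subunits Atp6v1a and Atp6v1b2, and those lower included Laptm5 and Arsa. In disease-associated microglia 6 were higher and 3 lower, against 6.42% and 14.8% of all genes. Gpnmb, which is in this list, was also a marker of the tumor-reactive state.

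The promoters of 4 genes are shown because they stand for the patterns above: the 2 cystatins that moved in opposite directions, Ctsd as the most abundant cathepsin, and Ctss as the first gene of the list in macrophages. RefSeq windows (build GRCm38.p6) were given for 8 of the 10 genes, without Ctsb and Ctsh. Each window is the 250 bases before the RefSeq start, and the part printed is cut back where the longest annotated form of the gene begins earlier. The printed parts lie at chr2:148875693-148875762 (minus strand) for Cst3, chr2:150570165-150570414 (plus strand) for Cst7, chr7:142388039-142388077 (minus strand) for Ctsd and chr3:95526536-95526785 (plus strand) for Ctss. Bases are written 5′ to 3′ on the strand of the gene, and capitals mark the E-box core CACGTG, the letters bound by TFEB and related factors that act on lysosomal genes, or the PU box GAGGAA on either strand, the core bound by the myeloid factor PU.1.
Cst3: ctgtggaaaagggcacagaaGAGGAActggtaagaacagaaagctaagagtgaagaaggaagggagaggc
Cst7: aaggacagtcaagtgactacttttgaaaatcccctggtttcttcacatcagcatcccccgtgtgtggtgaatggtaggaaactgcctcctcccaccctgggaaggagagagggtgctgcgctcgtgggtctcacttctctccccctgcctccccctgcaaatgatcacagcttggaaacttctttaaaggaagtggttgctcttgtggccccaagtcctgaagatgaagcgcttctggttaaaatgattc
Ctsd: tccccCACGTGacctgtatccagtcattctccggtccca
Ctss: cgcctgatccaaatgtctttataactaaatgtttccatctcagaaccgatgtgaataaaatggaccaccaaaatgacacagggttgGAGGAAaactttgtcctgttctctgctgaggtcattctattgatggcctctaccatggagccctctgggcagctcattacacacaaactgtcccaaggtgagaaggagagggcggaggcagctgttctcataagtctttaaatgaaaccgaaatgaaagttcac

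In the whole windows, the E-box core was found in 3 of 8, those of Ctsd, Ctsl and Ctsf, and in 6.02% of 32851 RefSeq windows of 250 bases. Ctsd had 2 matches, 245 and 98 bases before its start. The second of these, and the match of Ctsl 236 bases before its start, lie inside the longest annotated form of the gene and are not printed. The PU box was found in the windows of Cst3, Ctss and Ctsc, also 3 of 8, and in 23.3% of all windows. Cst7 and Ctsz held neither. These matches are letters in a window and were not tested for binding.

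WT and CD169-DTR microglia differed most in Cst7. It stood at 596 CPM in WT and 371 in CD169-DTR microglia, a log2 ratio of 0.68 (95% interval 0.66 to 0.71). The other 9 genes lay between -0.21 for Ctsf and 0.22 for Ctsb, with Ctsz at 0.16, Ctss at 0.13, Cst3 and Ctsh at 0.11, Ctsd at 0.04, Ctsc at 0.03 and Ctsl at 0.02. So 1 of the 10 genes was higher in WT by more than 0.5 and none was lower, where 2.16% of the 11616 genes compared were higher and 2.1% lower by that much. The median over the 10 genes was 0.11 and over all genes -0.04.

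Cst7 was higher in WT in each microglial state. The levels in WT and CD169-DTR were 219 and 143 CPM in homeostatic, 873 and 512 in interferon-responding, 831 and 563 in disease-associated, 1061 and 740 in tumor-reactive, 387 and 236 in cytokine and immediate-early, 690 and 541 in S phase and 594 and 378 in mitotic microglia. The log2 ratios ran from 0.35 in S phase to 0.77 in interferon-responding microglia, and 6 of the 7 passed 0.5. The share of all genes higher in WT by that much was 1.19% in homeostatic, 2.27% in interferon-responding, 1.78% in disease-associated, 5.14% in tumor-reactive, 2.03% in cytokine and immediate-early, 2.19% in S phase and 2.58% in mitotic microglia. The share of thinned cells with a Cst7 UMI was 48.6% (2215 of 4559) in WT and 36.4% (1905 of 5229) in CD169-DTR microglia. In macrophages the share was 5.80% and 4.08%. Macrophages are not a class without Cst7, since their sub-cluster high in Gpnmb and Pf4 had it at 1.79 and 2.33 times the free RNA level. In cDC1 the share was 2.78% in WT, while 0 of 32 CD169-DTR cDC1 had a UMI (exact 95% interval up to 10.9%). With both libraries given the same mixture of clusters the microglial Cst7 ratio was 0.59, with free RNA subtracted 0.80, and without cells holding a Siglec1 UMI 0.62. Whether it exceeds the variation between mice cannot be said from 1 library per genotype.

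**Figure D4:**
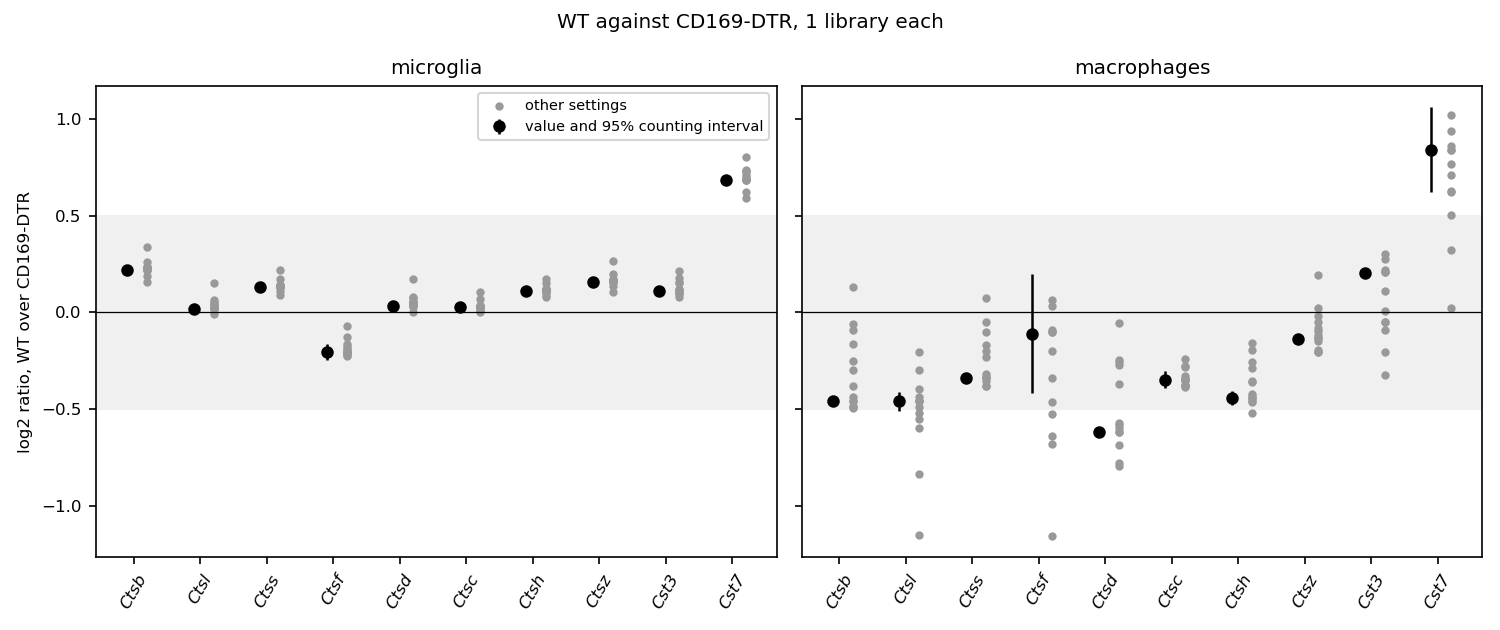
Log2 ratio of WT over CD169-DTR for each gene in microglia (left) and macrophages (right), where black points with bars are the values and 95% counting intervals, grey points are the same ratio under other processing settings, and the grey band lies at 0.5 either side of 0. Cst7 in microglia stays above the band under all settings shown (0.59 to 0.80), while the macrophage points spread widely, with Ctsd from -0.80 to -0.05. The value of Cst3 in macrophages with free RNA subtracted, -5.55, lies below the axis and is not drawn. It rests on the small remainder left in WT.

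Of the wider lysosomal list, 7 of 63 genes were higher in WT microglia by more than 0.5 and none was lower, against 2.16% higher and 2.1% lower among all genes. They were Acp5 (log2 ratio 1.43), a phosphatase of macrophages and osteoclasts, Gpnmb (1.04), Hpse (0.75), Tfec (0.75), Serpinb6b (0.72), Igf2r (0.69) and Cd74 (0.67), the invariant chain that Ctss and Ctsl process. In WT microglia Acp5, Serpinb6b and Cd74 were below the free RNA level, at 0.64, 0.32 and 0.43 times it, and Gpnmb, Hpse, Tfec and Igf2r were at 1.77, 1.70, 1.57 and 2.65 times it. The part of free RNA in these ratios was not tested. Gpnmb was at 40.1 CPM in WT and 19.6 in CD169-DTR against 905 and 1323 in macrophages. Lgmn, Lamp1 and Cd68, abundant in microglia, had log2 ratios of -0.01, 0.09 and 0.10.

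Macrophages of the WT library had lower levels of most cathepsins than those of the CD169-DTR library. Ctsd stood at 4027 CPM in WT and 6189 in CD169-DTR macrophages, and their log2 ratio was -0.62 (95% interval -0.64 to -0.60). Ctsb and Ctsl stood at -0.46, Ctsh at -0.44, Ctsc at -0.35, Ctss at -0.34, Ctsz at -0.13 and Ctsf at -0.11 (-0.42 to 0.20). Cst3 was at 0.20 and Cst7 at 0.84 (0.62 to 1.06), both near the free RNA level of WT macrophages. With the libraries merged without integration, where 340 WT and 231 CD169-DTR cells of the sub-cluster described next were named border-associated macrophages and left the class, Ctsb, Ctss and Ctsz turned sign, to 0.13, 0.08 and 0.19, and Ctsd was at -0.05. So the lower WT levels of Ctsb, Ctss and Ctsz, and the size of the difference for Ctsd, depended on this setting. It changed both the integration and the cells counted as macrophages. In the class as named here 1 gene was higher and 1 lower by more than 0.5, and 9.7% and 7.19% of the 9144 genes compared were. The median of the 10 genes was -0.34 and that of all genes -0.02.

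The macrophage class held different mixtures of cells in the 2 libraries. At a finer clustering the macrophages split off a sub-cluster high in Gpnmb and Pf4, which was singled out after its values were seen and held 437 cells (21.0%) of the WT and 241 cells (41.0%) of the CD169-DTR macrophages. Ctsd stood at 8036 and 8811 CPM in the sub-cluster and at 2345 and 2828 in the other macrophages, and Ctsb at 7741 and 8396 and at 3308 and 3706. Ctsl followed the same order, at 825 and 815 in the sub-cluster and 333 and 458 outside it. Within the sub-cluster WT over CD169-DTR gave log2 ratios of -0.13 for Ctsd and -0.12 for Ctsb, and among the other macrophages of -0.27 and -0.16. Ctsc and Ctsh kept more of their difference, with -0.28 and -0.34 inside and -0.38 and -0.29 outside the sub-cluster. Cst7 stood at 91.3 and 33.7 CPM in the sub-cluster, a log2 ratio of 1.44. Outside it Cst7 was at 28.3 and 16.7 CPM (0.77), which was 0.35 and 0.62 times the free RNA level. The WT cells were also shallower, with medians of 9369 against 19203 UMIs per cell in the sub-cluster and 6459 against 10623 outside it, and the part of depth and free RNA in the remaining ratios was not tested.

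The 2 macrophage states named from markers differed in the same genes in both libraries. Tumor-associated macrophages (Gpnmb, Ms4a7, Arg1 and Mmp12) numbered 1098 in WT and 327 in CD169-DTR, and monocyte-like macrophages (Ly6c2, Plac8, Chil3 and Vcan) 983 and 261. Ctsd was 2120 and 2734 CPM in monocyte-like and 6373 and 8230 in tumor-associated macrophages, a log2 ratio of 1.59 in each library. Ctsb differed by 1.29 and 1.24, Ctsl by 1.08 and 0.78, Ctss by 0.77 and 0.80, and Cst7 by 1.03 and 1.15 at levels near free RNA. Ctsh (0.43 and 0.54), Ctsz (0.49 and 0.46) and Cst3 (0.71 and 0.13) did not pass 0.5 in both libraries, and Ctsc was slightly lower in the tumor-associated state (-0.18 and -0.13). Together 6 of the 10 genes were higher and none lower in both libraries, where 13.5% of all genes were higher and 10% lower. The 6 include Ctsf, at 8.24 and 12.4 CPM in monocyte-like and 23.2 and 18.4 in tumor-associated macrophages. Both Ctsf and Cst7 were no higher than the free RNA level in the pooled WT class, so their part in this count is weak. Of 59 lysosomal genes 23 were higher, among them Lgmn, Cd63, Hexa and Naglu, and 1, Cd74, was lower. Median depth in tumor-associated macrophages was 4705 UMIs per cell in WT and 16167 in CD169-DTR, a gap not seen to this extent in monocyte-like macrophages (8944 and 11735).

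**Figure D5:**
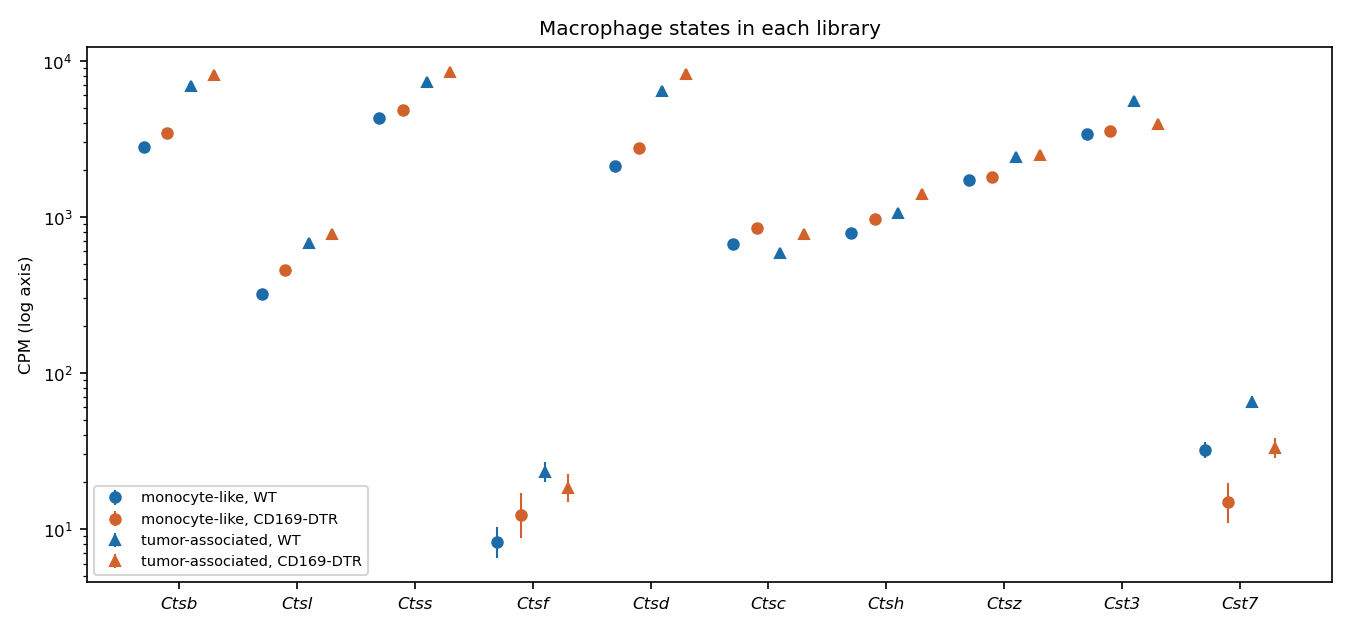
Level of each gene in monocyte-like (circles) and tumor-associated (triangles) macrophages of the WT and CD169-DTR libraries, in CPM on a log axis with 95% counting intervals. Ctsd, Ctsb, Ctsl and Ctss are higher in the tumor-associated state in both libraries, and Ctsc is slightly lower.

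Macrophages with a Siglec1 UMI, the marker of the cells that the toxin removes, differed little from those without one in the pooled WT class. Within its 2 states some thinned ratios were larger, but in the tumor-associated state their signs depended on the thinning. After thinning to 3000 UMIs there were 231 WT macrophages with and 1563 without, and the log2 ratio lay between -0.15 and 0.13 for Ctsb, Ctsc, Ctsd, Ctsh, Ctsl, Ctss, Ctsz and Cst3. Cst7 was at 0.84 (0.22 to 1.42) on 31 UMIs in the cells with a Siglec1 UMI, and Ctsf at 0.47 (-0.68 to 1.46) on 10. By state, Ctsd was at 0.22 (0.08 to 0.35) in monocyte-like and -0.21 (-0.28 to -0.14) in tumor-associated WT macrophages, Ctsb at 0.22 and -0.14, Ctsh at 0.27 and -0.24, and Cst3 at -0.05 and -0.35. Without thinning the tumor-associated values of these genes were 0.22, 0.03, 0.03 and 0.29 in that order, so each sign turned. The monocyte-like values were 0.39, 0.18, 0.34 and 0.12, where only the sign of Cst3 turned. Thinning left out 253 of the 1098 WT tumor-associated and 34 of the 983 WT monocyte-like macrophages. In the CD169-DTR library 33 macrophages had a Siglec1 UMI after thinning. Those 33 cells had lower Ctsd (-0.69, interval -0.85 to -0.52) and Ctsb (-0.48) and higher Ctsc (0.53) than the other 531. Of the 33 cells 23 were monocyte-like and 10 tumor-associated, against 235 and 296 of the others. Among monocyte-like cells Ctsd was at -0.13 (-0.38 to 0.11), Ctsb at -0.10 (-0.31 to 0.11) and Ctsc at 0.52 (0.16 to 0.87). Among tumor-associated cells they were at -0.41, -0.25 and 0.39, on 10 cells with a Siglec1 UMI. The part of the mixture of states in the pooled values was not tested. Without thinning Ctsd was at 0.37, Cst3 at 0.27 and Ctsz at 0.08 in the pooled WT class, so the signs of Cst3 and Ctsz turned. In the pooled CD169-DTR class Ctsd was at 0.22, Ctsb at 0.11, Ctss at 0.07, Ctsl at -0.02 and Cst3 at -0.07, and each of these signs turned.

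Other classes repeated parts of these values with fewer cells. In Cd209a DC, Ctsd stood at 1092 CPM in WT and 1842 in CD169-DTR, Ctsb at 1041 and 1649, and Ctsl at 216 and 331, so 3 genes were lower in WT by more than 0.5 where 7.21% of genes were. Of the 198 CD169-DTR cells 1 held 24.8% of the Ctsd, 15.6% of the Ctsl and 12.7% of the Ctsb UMIs. Without that cell the log2 ratios were -0.36 for Ctsd, -0.39 for Ctsl and -0.49 for Ctsb, and no gene was lower by 0.5. In WT, Ctsd and Ctsl in this class were at 1.13 and 1.06 times the free RNA level. Ctsh, at 1052 and 1096, and Ctss, at 3193 and 3625, differed less. In T cells Ctsh, Ctsl, Ctss and Cst3 were higher in WT by more than 0.5, with 13.9% of all genes, and in NK cells Ctsh, Ctss and Cst3 were, with 9.33%. All these lymphocyte levels were at or below 0.98 times the free RNA level, which was itself estimated as higher per droplet in the WT library. That level was estimated from lymphocytes, so these values are not a separate check of it.

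Other members of the cathepsin and cystatin families did not all peak in the same class. Cstb, the cytosolic cystatin B, stood at 2101 and 1513 CPM in macrophages and 312 and 256 in microglia, opposite to Cst3 and Cst7, with log2 ratios of macrophages over microglia of 2.75 and 2.56. Within microglia it went from 114 and 98.7 in homeostatic to 751 and 559 in tumor-reactive cells. The WT homeostatic value was 0.48 times the free RNA level of Cstb, where Cst7 was 2.31 times its own. Ctsw, a lymphocyte cathepsin, stood at 774 and 824 in NK cells and 363 and 398 in T cells. Ctsg, a granule serine protease, reached 1747 and 1435 in mast cells or basophils. Ctsk, best known from osteoclasts, was at 54.5 CPM in WT and 20.2 in CD169-DTR tumor-associated macrophages. Stfa2l1, a stefin, was at 252 and 811 in granulocytes. Ctsa, a carboxypeptidase that also protects lysosomal glycosidases, stood at 1055 and 1025 in microglia and 543 and 794 in macrophages. Of 22 further family genes listed, 21 were in the matrices.

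Over 31 points, the myeloid clusters with at least 50 cells in a library (17 clusters), the 10 genes did not follow 1 common pattern. Among themselves the closest pair was Ctsd and Ctsz (Pearson r 0.94 on log2 levels) and the most distant were Ctsh and Cst3, Ctsf and Ctsh, and Ctsb and Cst3 (0.30 each). Among 8648 genes the one most like Cst3 was Col27a1 (0.94), most like Cst7 was the complement gene C4b (0.95), and most like Ctsf was the microglial receptor Gpr34 (0.99). Ctsd was most like Naglu (0.99) and the complement genes C1qc and C1qb (0.98 each), and Ctsb most like the lysosomal nuclease Pld3 (0.95). Ctss was most like the lysosomal nuclease Dnase2a (0.97), and Ctsz like Lgals3bp, Lgmn and Grn (0.95 each). The points share 2 libraries and the free RNA in them, so these values describe likeness only.

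The genes are spread over the genome, except that 3 of them lie on the chromosome of the modified locus. On GRCm38, Siglec1 is at chr2:131069220-131086765 on the minus strand, Cst3 (ENSMUSG00000027447) at chr2:148871722-148875692 on the minus strand, Cst7 (ENSMUSG00000068129) at chr2:150570415-150578944 on the plus strand and Ctsz at chr2:174427493-174439039 on the minus strand. These genes are 17.8, 19.5 and 43.3 megabases from Siglec1. In microglia Cst3, which lies between Siglec1 and Cst7, had a log2 ratio of WT over CD169-DTR of 0.11 and Cst7 of 0.68. Ctsd (chr7:142375911-142388038), Ctsb (chr14:63122462-63145923), Ctss (chr3:95526786-95556403), Ctsl (chr13:64359337-64370890), Ctsc (chr7:88278085-88310888), Ctsh (chr9:90054152-90076089) and Ctsf (chr19:4855130-4860918) are on other chromosomes.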

How the data were processed

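The authors processed both 10x libraries (3' v3 chemistry) with Cell Ranger (3.1.0 per the file headers) against mm10 and deposited raw UMI counts per gene and barcode. The counts were used as deposited. Barcodes under 1000 UMIs or above 17% mitochondrial UMIs were left out. Cells were integrated and clustered with Seurat 5.3.0 (R 4.3.3) on 2000 variable genes without 39 cathepsin, cystatin and related genes, at resolution 1. A cluster was named when at least 50% and at least 3 of a class's markers were detected; these naming limits were set after the data were seen. Doublets were scored with Scanpy 1.11.5 and kept, since its automatic call marked too few cells, and removing the top 6% of scores was an alternative. UMIs were summed per group and library and given as CPM (NumPy 2.4.6, SciPy 1.17.1), with exact Poisson, conditional binomial and Clopper-Pearson intervals that cover counting error only. A gene entered a comparison with at least 100 UMIs, and a log2 ratio of 0.5 was the limit for counts. All 10 genes passed that minimum in microglia and macrophages. Free RNA profiles came from barcodes of 10 to 100 UMIs. The genes named were all members, family genes with a stated class, and lysosomal genes beyond the limit. The members, lists and limits were chosen with earlier results of these data known. The ratio intervals and the calls beyond the limit were tried on simulated Poisson counts. Clustering, naming, the free RNA estimate and thinning were not tested in that way.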

Additional observations from a re-analysis of the deposited data

Results flagged for a closer look

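The sign of the WT over CD169-DTR ratio was opposite in microglia and macrophages for 7 genes, positive in microglia and negative in macrophages. The difference of the log2 ratios, macrophages minus microglia, was -0.67 for Ctsb, -0.66 for Ctsd, -0.55 for Ctsh, -0.48 for Ctsl, -0.47 for Ctss, -0.38 for Ctsc and -0.29 for Ctsz. With 1 library per genotype the difference was not tested. The microglial values of Ctsd, Ctsc and Ctsl, between 0.02 and 0.04, were close to 0. In macrophages Ctsb went to 0.13, Ctss to 0.08 and Ctsz to 0.19 with the libraries merged without integration, so those signs turned. In that setting 340 WT and 231 CD169-DTR cells of the Gpnmb and Pf4 sub-cluster were named border-associated macrophages and were no longer in the class.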

How the results depend on the processing

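No paired analysis was possible because each genotype had 1 library, and for the same reason no replicate could be left out. The count of genes beyond a log2 ratio of 0.5 between WT and CD169-DTR microglia was 1, and 0 at a limit of 1. In macrophages the count was 2. It was 1 with clusters at resolution 2, with the libraries merged without integration and with the same cluster weights in both libraries. It was 4 with the top 6% of doublet scores removed and without cells holding a Siglec1 UMI, 5 with free RNA subtracted, and 0 at a limit of 1. At resolution 2 all 437 WT and 241 CD169-DTR cells of the Gpnmb and Pf4 sub-cluster were unnamed, and with the libraries merged 340 and 231 of them were named border-associated macrophages, so these counts come from other sets of cells. In Cd209a DC the count lower in WT was 3, and 0 without the CD169-DTR cell with the most Ctsd UMIs. The alternative without that cell, the Siglec1 alternative, the one without the Gpnmb and Pf4 sub-cluster and the one with cells of at least 5000 UMIs were chosen after seeing the data. Of the sub-cluster, 423 WT and 237 CD169-DTR cells were unnamed when the family genes entered the clustering, and Ctsd in macrophages was then -0.25. Macrophages over microglia for Ctsb in CD169-DTR went from 0.13 to -1.02 with the libraries merged. Cst7 in macrophages ran from 0.02 to 1.02. In the CD169-DTR library the value of Ctsd in macrophages with over without a Siglec1 UMI turned from -0.69 to 0.22 without thinning. Of 764 single values under alternatives, 346 stayed within their counting interval. Of 736 log2 ratios, 35 turned sign, and 34 of these were under 0.5 in size to begin with. Disease-associated microglia were not named when the family genes entered the clustering, so that alternative gave no value there. Cst7, Ctsf and Cst3 in WT macrophages are limited by free RNA, and classes under 50 cells by counting.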
